A study of Andrographis paniculata with 12 samples.

Results

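EPIDERMAL PATTERNING FACTOR (EPF) peptides are small secreted proteins that plants use to set how many stomata, the pores of the leaf surface, are formed. In Arabidopsis they bind receptor kinases of the ERECTA family together with the receptor-like protein TOO MANY MOUTHS (TMM), which act through a MAP kinase cascade on the transcription factor SPEECHLESS (SPCH), the switch that starts the stomatal lineage. EPF2 is made by early lineage cells and keeps their neighbours out of the lineage, whereas EPF-like 9 (EPFL9, also called STOMAGEN) is made by the inner mesophyll, competes for the same receptors and promotes stomata.

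The 2 assembled genes described here are TR26482|c0_g5, a hit to EPFL9, and TR26411|c3_g3, a hit to EPF2, out of 32064 assembled genes measured in leaves of the herb Andrographis paniculata. They were picked by name among genes with large differences between the times, so their levels over the time course are given as a description with no test. The leaves had been exposed to methyl jasmonate (MeJA), a volatile form of the defence hormone jasmonate, for 12, 24 or 48 h, and the 0 h leaves are the baseline. The labels name 12 samples, which are 3 biological replicates for every time. Neither the genotype, age or growth stage of the plants nor the MeJA dose is given in the sources used here, and no untreated leaves of the later times were analysed, so MeJA and elapsed time (with the time of day) cannot be told apart. The deposited table gives 1 mean level per gene and time in the authors' normalised unit, which is not named, so no level below has an error or a replicate number and no difference could be tested against the spread between plants. An assembled gene is a cluster of assembled transcripts, and the number before the bar names its assembly component, whose pieces may belong to 1 gene or to several. Levels are compared between times and not between genes, since it is not known whether the unit is per length.

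The EPFL9 hit was at 75.1, 1.09, 5.12 and 3.40 at 0, 12, 24 and 48 h. It was high at 0 h and low at the 3 later times, with the lowest level at 12 h. In bulk leaf tissue, fewer cells of a type and less RNA per cell cannot be told apart. The level at 12 h was 1.45% of that at 0 h, the level at 24 h 6.82% and the level at 48 h 4.52%. On the log2(level + 1) scale, which understates differences of low levels, the differences from 0 h were -5.19 at 12 h, -3.64 at 24 h and -4.11 at 48 h. A gene is called higher or lower below where this difference is 1 or more in size, a 2-fold rule used in place of a test, among the 29399 genes whose highest level over the times reached 1. By this rule 15% of these genes were higher and 17.7% lower at 12 h than at 0 h, 13.4% and 16.9% at 24 h, and 12.2% and 19.6% at 48 h. Of the 29399 genes, 136 had a more negative difference than the EPFL9 hit at 12 h, 229 at 24 h and 208 at 48 h.

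Between the later times the EPFL9 hit was higher at 24 and 48 h than at 12 h. Its difference was 1.55 for 24 h against 12 h, where 10.6% of the genes were higher and 11.1% lower. The 48 h level differed from the 24 h level by -0.48, under the 2-fold rule. For 48 h against 12 h it was 1.08, in a comparison in which 9.93% of the genes were higher and 15.5% lower, and 0.97, under the rule, when pieces of the component with the same hit were summed.

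A second piece of the component, TR26482|c0_g3, is also a hit to EPFL9. Its levels were 3.71, 0.318, 0.714 and 0.306 at 0, 12, 24 and 48 h. It too was highest at 0 h and lower by the rule at all 3 later times, with differences of -1.84 at 12 h, -1.46 at 24 h and -1.85 at 48 h. Another piece, TR26482|c0_g1, has no database hit and was listed between 0 and 0.731. The table gives no predicted protein for any of these pieces, so the EPFL9 name rests on the translated nucleotide search (BLASTX) alone. The gene ontology terms attached to TR26482|c0_g5 are those of stomatal complex development and patterning.

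**Figure D1:**
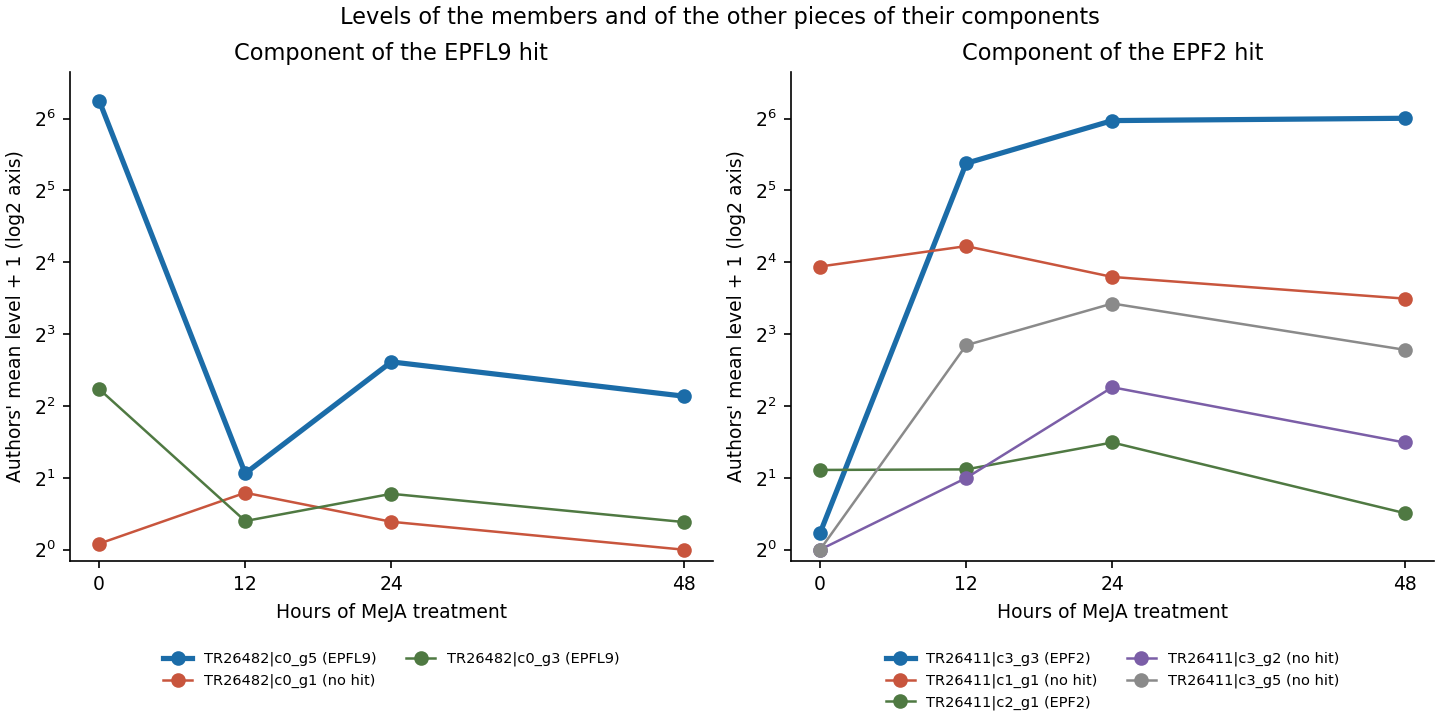
Levels plus 1 on a log2 axis, against hours of MeJA treatment, of each piece of the assembly components that hold the EPFL9 hit (left) and the EPF2 hit (right). Each point is the authors' mean at 1 time, without an error, and the thick lines are the 2 hits: the EPFL9 hit is highest at 0 h with 75.1, and the EPF2 hit is lowest at 0 h with 0.175.

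The EPF2 hit, TR26411|c3_g3, was at 0.175, 40.5, 61.7 and 63.1 at 0, 12, 24 and 48 h. It was near 0 at 0 h and high at all 3 later times. The differences from 0 h on the log2(level + 1) scale were 5.14 at 12 h, 5.74 at 24 h and 5.77 at 48 h, and no ratio is given because the level at 0 h is near 0. In all, 159 of the 29399 genes had a larger positive difference at 12 h, 74 at 24 h and 68 at 48 h. Between the later times it stayed under the 2-fold rule, with differences of 0.59 (24 h minus 12 h), 0.03 (48 h minus 24 h) and 0.63 (48 h minus 12 h). For 48 h against 24 h, 2.36% of all genes were higher and 4.5% lower.

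The annotation of TR26411|c3_g3 goes against its EPF2 name. The BLASTX search of its transcript gave EPF2, but the protein predicted from it has a bacterial DnaJ chaperone as its best Swiss-Prot hit and carries a DnaJ domain, the part of such co-chaperones that binds Hsp70. No signal peptide was predicted, and the gene ontology terms are those of DnaJ proteins, such as protein folding and response to heat. Among the 18 hits to the EPF family it is the only one with a domain in the table's Pfam column. Of the 9 of these hits that have a predicted protein, 8 have an EPF as the best hit of that protein as well, and TR26411|c3_g3 is the exception. Over the whole table, the transcript and protein searches gave the same entry name for 90.5% of the 16002 genes with both. The gene is therefore called the EPF2/DnaJ hit below.

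Another piece of the same component, TR26411|c2_g1, has EPF2 as the best hit of both its transcript and its predicted protein. It was at 1.16, 1.17, 1.81 and 0.423 at 0, 12, 24 and 48 h. It was lowest at 48 h, and the differences from 0 h, 0.01, 0.38 and -0.60, were all under the rule. The EPF2 name with protein support therefore did not share the difference seen for TR26411|c3_g3.

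Pieces without a database hit lay beside the EPF2/DnaJ hit. TR26411|c3_g5 was listed at 0 at 0 h and was at 6.19 at 12 h, 9.74 at 24 h and 5.88 at 48 h. TR26411|c3_g2 was listed at 0 at 0 h and was at 0.997, 3.79 and 1.81 at the later times. These pieces share the c3 part of the component number with the hit and were likewise low at 0 h and higher later, by the rule at all 3 times except TR26411|c3_g2 at 12 h, which was just under it at 0.998. TR26411|c1_g1, outside that part, was between 10.3 and 17.7 at the 4 times and under the rule at each.

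The table holds 1 further gene with the same unnamed TrEMBL protein, of the monkeyflower Erythranthe guttata, as its best hit. TR15171|c0_g1 has DnaJ as the best hit of both its transcript and its protein. It was at 31.3, 5.37, 25.4 and 28.9 at 0, 12, 24 and 48 h. Its levels were lowest at 12 h, when those of the EPF2/DnaJ hit were already high. In all, 103 genes have a predicted DnaJ domain, of which 99 passed the level filter. The 12 h levels of 13 exceeded the 0 h levels by the rule and those of 10 were lower, beside 15% and 17.7% of all genes. Their median difference was 0.07, beside one of 0.06 over all 29399 genes. The EPF2/DnaJ hit had the second largest positive difference among them at 12 h. The gene with a larger one, the DnaJ hit TR17449|c0_g1 (chosen after its values were seen), was at 0.279, 123, 1.35 and 1.40 at 0, 12, 24 and 48 h, so it was high at 12 h alone.

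On the log2(level + 1) scale, the other hits to the EPF family had smaller differences than the 2 genes, which were picked among large ones. That scale understates differences of low levels. At 24 h the EPFL2 hit TR25712|c0_g1 was at 2.64% of its 0 h level and the EPFL9 hit at 6.82%. At 12 h they were at 9.75% and 1.45%. The 18 hits fall on 7 Swiss-Prot entries, and 17 of them passed the level filter, the exception being the EPFL2 hit TR47938|c0_g1, whose highest level was 0.770 at 0 h. Of the 17, which include the 2 genes, 4 were higher and 5 lower at 12 h than at 0 h. At 24 h 1 was higher and 7 lower, and at 48 h 1 higher and 6 lower. Without the 2 genes, 3 of 15 were higher and 4 lower at 12 h, beside 15% and 17.7% of all genes. None of the 15 was higher later, and 6 were lower at 24 h and 5 at 48 h, beside 16.9% and 19.6%. The median difference of the 17 was -0.28 at 12 h, -0.50 at 24 h and -0.73 at 48 h. Medians over all genes were 0.06, 0.01 and -0.09. With a pseudocount of 0.1 in place of 1, the family median was -2.14 at 24 h and -1.43 at 48 h. At that setting 3 hits were higher and 11 lower at 48 h. Over all 29399 genes, 5118 were then higher and 7585 lower at 48 h, against 3587 and 5774 with a pseudocount of 1. The medians over all genes were then 0.01 at 24 h and -0.11 at 48 h. A smaller pseudocount enlarges differences of levels near 0, such as that of TR24598|c0_g1, at 0.0420 at 24 h. Without the EPFL9 hit and the EPF2/DnaJ hit, the levels of the other 16 summed to 41.7, 32.1, 24.0 and 21.0 over the 4 times. Over the same hits, 3 of the 15 that passed the filter were lower at all 3 later times. None was higher at all 3, against 9.69% (lower) and 6.27% (higher) of all genes. One of the 3, TR26482|c0_g3, is a piece of the component of the EPFL9 hit, and the others are TR25712|c0_g1 and TR82622|c0_g1.

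EPF1, which in Arabidopsis enforces the spacing of stomata, had 1 hit with protein support, TR62324|c0_g1. It was at 3.59, 0.820, 2.25 and 1.51 at 0, 12, 24 and 48 h. Its level was lowest at 12 h, where the difference of -1.33 was past the rule, and those of -0.50 at 24 h and -0.87 at 48 h were not. Hits to EPFL2, a peptide that in Arabidopsis acts in shaping the leaf margin, went both ways at 12 h. TR25712|c0_g1 was at 5.04, 0.491, 0.133 and 0.223 over the 4 times, lower at all 3 later times with differences of -2.02, -2.41 and -2.30. TR73536|c0_g2 was at 1.18, 3.82, 0.177 and 0.314, and TR67048|c0_g1 at 0.774, 2.75, 0.883 and 0.224. Both were highest at 12 h, with differences of 1.15 and 1.08 from 0 h. TR45444|c0_g2 was at 1.56, 0.551, 0.251 and listed at 0 over the 4 times.

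The EPFL4 to EPFL6 group acts in Arabidopsis stems through ERECTA, and its members here were hits to EPFL5 and EPFL6. Both EPFL5 hits were highest at 0 h. TR82622|c0_g1 was at 2.80, 0.576, 0.218 and 0.339 and was lower at all 3 later times, and TR24598|c0_g1 was at 1.32, 0.715, 0.0420 and 0.295 and was lower at 24 h. The 3 EPFL6 hits had no difference from 0 h past the rule. Of these, TR33483|c1_g3 was at 6.55, 5.2, 8.48 and 5.71, TR31508|c0_g2 at 4.43, 7.32, 3.92 and 2.33, and TR31508|c0_g1 at 0.340, 1.03, 0 and 1.44. The EPFL1 hits differed among themselves. TR71524|c0_g1 stayed between 4.06 and 5.98, TR58615|c0_g2 was at 4.26, 1.90, 0.386 and 1.14, and TR86267|c0_g1 was at 0.0723, 1.24, 0.630 and 0.688. At 12 h the smallest difference called in the family was that of TR86267|c0_g1, at 1.07, and the largest in size that was not called was that of TR58615|c0_g2, at -0.86.

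**Figure D2:**
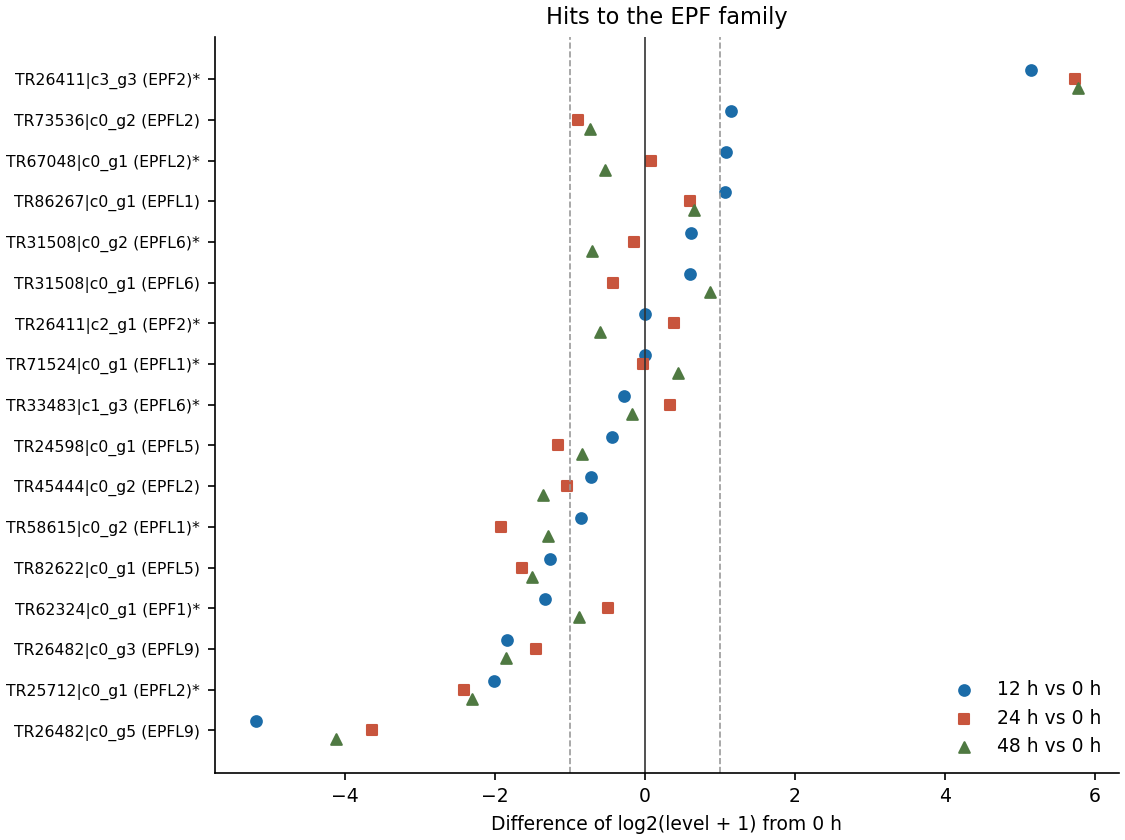
Difference of log2(level + 1) from 0 h at 12, 24 and 48 h (x axis) for the 17 hits to the EPF family that passed the level filter (rows, with the Swiss-Prot name in brackets). Dashed lines mark the 2-fold rule, and an asterisk marks a hit with a predicted protein that has a Swiss-Prot hit of its own. The EPFL9 hit at -5.19 and the EPF2/DnaJ hit at 5.14 lie at the ends, and the other 15 hits lie between -2.41 and 1.15 over the 3 times.

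Of the predicted proteins with an EPF as best hit, 5 of 8 carried a predicted signal peptide, the segment that sends a protein into the secretory pathway, and 7 of 8 had a signal peptide or a predicted membrane helix. The remaining 1, TR25712|c0_g1, had neither.

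The receptors of these peptides were measured in the same leaves. Of 8 hits to ERECTA, ERECTA-like 1 (ERL1) and TMM, 7 passed the level filter. Among these 7, 2 were higher and 4 lower at 12 h, beside 15% and 17.7% of all genes. At 24 h none was higher and 4 were lower, beside 13.4% and 16.9%. At 48 h none was higher and 5 were lower, beside 12.2% and 19.6%. The median differences were -1.35, -1.02 and -1.26. With pieces of a component summed they were -0.66 at 12 h and -0.85 at 24 h, and among hits that reached a level of 10 they were -0.11 and -0.77, all under the rule. The ERL1 hit TR26638|c0_g1 was at 21.0, 3.54, 6.59 and 8.10 over the 4 times, and TR26638|c0_g2, a piece of the same component, at 9.82, 0.907, 1.53 and 0.536. Both were highest at 0 h, as the EPFL9 hit was. The only TMM hit, TR61913|c0_g1 (chosen after its values were seen), was at 3.67, 0.832, 1.31 and 0.988, lower by the rule at all 3 times. The ERECTA hit TR13457|c1_g1 was at 8.46, 8.66, 4.90 and 5.67, with no difference past the rule. The ERECTA hits TR79552|c0_g1 and TR79280|c0_g1 (both chosen after their values were seen) were highest at 12 h, TR79552|c0_g1 at 2.23, 12.5, 2.24 and 0.348 and TR79280|c0_g1 at 0.758, 6.31, 1.45 and 0.352. TR79552|c0_g1 was also lower by the rule at 48 h than at 0 h.

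The SERK kinases are co-receptors shared with brassinosteroid and immune signalling. Of 10 hits, 1 was higher and 1 lower at 12 h, beside 15% and 17.7% of all genes. None was higher and 1 lower at 24 h and at 48 h, beside 13.4% and 16.9%, and 12.2% and 19.6%. The SERK hits with the highest mean levels were TR72022|c5_g1, named BAK1, at 265, 141, 206 and 199, and TR52460|c7_g1, named SERK1, at 98.3, 187, 139 and 127. Both stayed under the 2-fold rule at all 3 times. The hits past the rule at 12 h were pieces named SERK2. TR44368|c1_g7 was at 5.50, 1.61, 1.66 and 1.44, and TR26700|c3_g2 at 0.531, 2.18, 0.939 and 0.640.

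In the MAP kinase cascade below the receptors, 2 of 14 hits were higher and 1 lower at 12 h, beside 15% and 17.7% of all genes. At 24 h 1 was higher and 1 lower, beside 13.4% and 16.9%. At 48 h 1 was higher and 3 lower, beside 12.2% and 19.6%. MPK3 (TR81688|c0_g1), a kinase of this cascade that also serves defence, was at 11.1, 48.0, 24.9 and 24.9, higher at all 3 times. MKK9 (TR80395|c2_g5) was at 63.6, 210, 121 and 94.9, past the rule at 12 h with a difference of 1.71. The YODA hit with the highest mean level (TR57908|c1_g2), the kinase at the head of the cascade, was at 51.0, 80.8, 82.6 and 78.1 and stayed under the rule. Of the 14 hits, 10 were to YODA, a split made after the values were seen. None of these 10 was higher against 0 h, and 1 was lower at 12 h, 1 at 24 h and 3 at 48 h.

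Among 9 hits to bHLH factors of the stomatal lineage, none was higher at any time. At 12 h 3 were lower, at 24 h 2 and at 48 h 2, beside 17.7%, 16.9% and 19.6% of all genes. The shares of all genes that were higher were 15%, 13.4% and 12.2%. SPCH (TR73550|c0_g1) was at 5.80, 0.310, 0.726 and 0.360 at 0, 12, 24 and 48 h. Its differences from 0 h were -2.38, -1.98 and -2.32. ICE1, also called SCREAM, is the partner protein of SPCH. Its hit TR23463|c0_g5 was at 26.1, 1.00, 3.80 and 1.54, with differences of -3.76, -2.50 and -3.42, whereas the ICE1 hit TR83299|c4_g1 was at 16.3, 17.7, 14.5 and 13.7 and stayed under the rule. A second SPCH hit, TR26700|c4_g3 (chosen after its values were seen), was at 1.19, 0.396, 0.836 and 0.714 and stayed under the rule. Both TR73550|c0_g1 and the first of these ICE1 hits were highest at 0 h and lowest at 12 h. The single MUTE hit, TR52945|c0_g1, for the factor that ends the divisions of lineage cells, was at 0.848, 1.35, 1.57 and 0.756. The FAMA hits, for the factor that completes guard cells, were TR26700|c7_g2, at 3.74, 0.681, 2.21 and 1.39, and TR59198|c4_g3, at 1.28, 0.728, 1.08 and 0.559 (MUTE and FAMA chosen after their values were seen). TR26700|c7_g2 was past the rule at 12 h alone. The hits TR26700|c4_g3 and TR26700|c7_g2 and the SERK2 piece TR26700|c3_g2 share 1 assembly component, so they may not be separate genes.

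No hit to the polarity protein BASL was found among the names searched, where all 10 hits belonged to the BREVIS RADIX family.

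**Figure D3:**
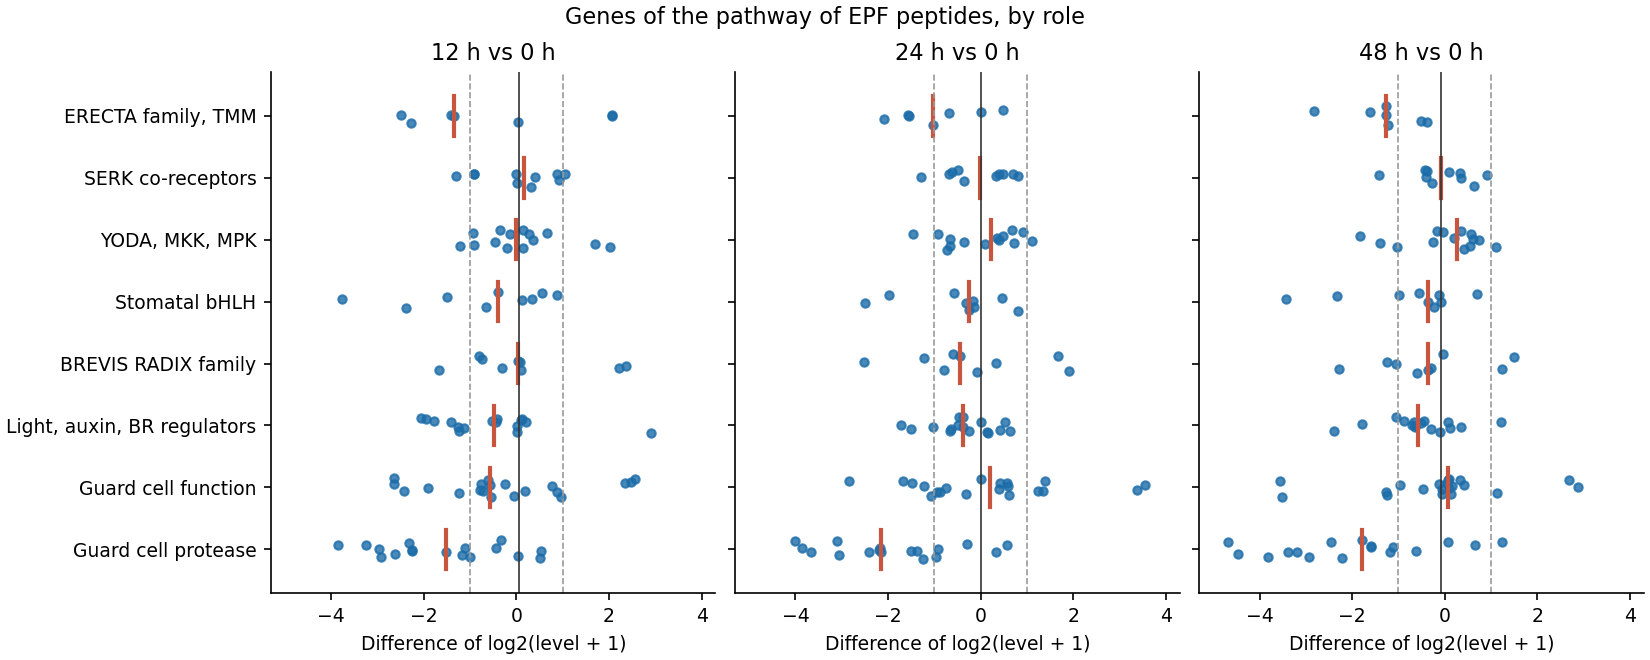
Difference of log2(level + 1) from 0 h at 12, 24 and 48 h for single genes (points) of the lists around the EPF peptides, by role (rows). Red bars are medians of a list, the solid line is the median of all 29399 genes and the dashed lines mark the 2-fold rule; the ERECTA and TMM list has medians of -1.35, -1.02 and -1.26, of which those at 12 and 24 h are under the rule with pieces summed.

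The BREVIS RADIX hits are relatives of proteins that act in cell polarity. Of 9 that passed the filter, 2 were higher and 1 lower at 12 h, beside 15% and 17.7% of all genes. At 24 h 2 were higher and 2 lower, beside 13.4% and 16.9%. At 48 h 2 were higher and 3 lower, beside 12.2% and 19.6%. TR85656|c2_g1 was at 6.0, 35.3, 21.3 and 15.4, and TR57043|c0_g3 at 4.90, 26.6, 21.2 and 15.6. Both were higher at all 3 later times, as were 6.27% of all genes. Another of the 9, 1 hit, was lower at all 3, as were 9.69% of all genes. Among 3 hits to the stomatal protease SDD1, the proteins predicted for the 2 that passed the filter had other best hits, PSB28 and TARBP1, so no value is given for that protease.

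Of 16 hits to light, auxin and brassinosteroid regulators of stomatal development, 1 was higher and 7 lower at 12 h, beside 15% and 17.7% of all genes. None was higher and 3 were lower at 24 h, beside 13.4% and 16.9%, and 1 was higher and 3 lower at 48 h, beside 12.2% and 19.6%. HY5 (TR25750|c0_g1), a light-signalling factor that activates EPFL9 in Arabidopsis, was at 97.0, 35.8, 141 and 90.7. It was lower at 12 h with a difference of -1.41 and under the rule at 24 and 48 h. Auxin response factor 5, which represses EPFL9 in Arabidopsis, had hits that moved apart. TR13501|c1_g1 was at 49.9, 11.2, 16.8 and 13.8, and TR63249|c3_g2 at 1.16, 15.3, 2.37 and 4.05. The shaggy-related kinase eta hit (TR79281|c0_g1), named after a brassinosteroid pathway kinase, stayed between 98.3 and 141.

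Of 20 hits to guard cell channels, kinases and phototropins that passed the filter, 3 were higher and 5 lower at 12 h, 5 and 5 at 24 h, and 3 and 4 at 48 h. The shares over all genes were 15% and 17.7% at 12 h, 13.4% and 16.9% at 24 h, and 12.2% and 19.6% at 48 h. The channels and the phototropins were split off after the values were seen. The kinase SRK2E, known as OPEN STOMATA 1 (TR51732|c0_g1), was at 9.5, 57.8, 14.8 and 12.3, past the rule at 12 h alone. Of 6 hits to the inward potassium channels named KAT, 2 were higher at 12 h, 4 at 24 h and 2 at 48 h, and none was lower. A predicted protein exists for 2 of the 6, and the hits may be pieces of fewer genes. Of 3 anion channel hits, none was past the rule at 12 h. At 24 h and at 48 h, 1 of the 3 was higher and none lower. Of 8 phototropin hits, the blue light receptors that open stomata and also work in other leaf cells, none was higher and 5, 4 and 4 were lower at 12, 24 and 48 h. The phototropin 2 hit TR48610|c0_g4 was at 53.7, 7.80, 54.0 and 57.2, and the phototropin 1 hit TR80045|c0_g3 at 22.5, 2.78, 2.26 and 1.06. At 48 h the phototropin 2 hit was thus near its 0 h level and the phototropin 1 hit was not. Of 17 hits to ASPARTIC PROTEASE IN GUARD CELL that passed the filter, 12 were lower at 12 h and 12 at 24 h. At 48 h 13 were lower and 1 was higher. At all 3 times 11 were lower, beside 9.69% of all genes. For 4 of the 17, the predicted protein has another entry as its best hit. The one with the highest mean level, TR31704|c0_g1, was at 138, 26.9, 57.8 and 62.8.

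Most photosynthesis genes listed as mesophyll markers were lower at the later times, as the EPFL9 hit was. The list has 31 hits to the Rubisco small chain and chlorophyll a-b binding proteins, 28 of them to the latter. Of 30 that passed the filter, 28 were lower at 12 h, 28 at 24 h and 27 at 48 h, and none was higher. The shares of all genes that were lower were 17.7%, 16.9% and 19.6%. The levels of all 31 hits summed to 55966, 3751, 12286 and 14553 at 0, 12, 24 and 48 h, and their part in the difference of the EPFL9 hit was not tested. The chlorophyll a-b binding protein TR17188|c7_g3 was at 10556, 363, 1085 and 1210, and its profile was among those closest to that of the EPFL9 hit, with 19 of the 29399 tested genes closer. Of 34 vascular hits, 6 were higher and 2 lower at 12 h, 1 and 2 at 24 h, and 3 and 3 at 48 h, beside shares over all genes of 15% and 17.7%, 13.4% and 16.9%, and 12.2% and 19.6%.

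The genes with the most similar time course were found by the root mean square distance between profiles of log2(level + 1) over the 4 times, each centred on its own mean, among the annotated genes that reached a level of at least 10. For the EPFL9 hit, 49 of 10351 such genes lay within 0.5. The nearest was the heat stress factor A-6b hit TR74564|c2_g2, at a distance of 0.19, with levels of 58.0, 0.817, 4.18 and 3.90. Next came the thylakoid-shaping protein CURVATURE THYLAKOID 1A (TR66690|c0_g4, 0.20), the phototropism protein RPT2 (TR57010|c0_g1, 0.22), the U-box protein PUB27 (TR62846|c0_g3, 0.25) and a CASP-like membrane protein (TR23905|c2_g1, 0.27). All 5 were highest at 0 h and lowest at 12 h, where RPT2 was listed at 0. The pathway genes named above were ranked among all 29399 tested genes, annotated or not, since some did not reach a level of 10. The ICE1 hit TR23463|c0_g5 had a distance of 0.54 with 86 of these genes closer, the ERL1 hit TR26638|c0_g2 one of 0.95 with 566 closer, and the SPCH hit TR73550|c0_g1 one of 1.01 with 699 closer.

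For the EPF2/DnaJ hit, 42 of 10351 genes lay within 0.5. The nearest was a patatin-like lipid hydrolase (TR85657|c8_g1), at a distance of 0.15, with levels of 31.6, 939, 1869 and 1770. It was followed by TIFY 10A (TR47119|c4_g2, 0.16), of the family of jasmonate repressors, at 0.552, 54.0, 81.0 and 64.3. The others were methionine gamma-lyase (TR53268|c0_g2, 0.18), leucoanthocyanidin dioxygenase (TR20880|c0_g4, 0.19) and a galactinol-sucrose galactosyltransferase (TR74534|c0_g1, 0.19). Like the EPF2/DnaJ hit, all 5 were lowest at 0 h. With 4 times, Pearson's correlation gave other nearest genes: 1 of the 5 was shared for the EPFL9 hit and 0 of 5 for the EPF2/DnaJ hit.

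**Figure D4:**
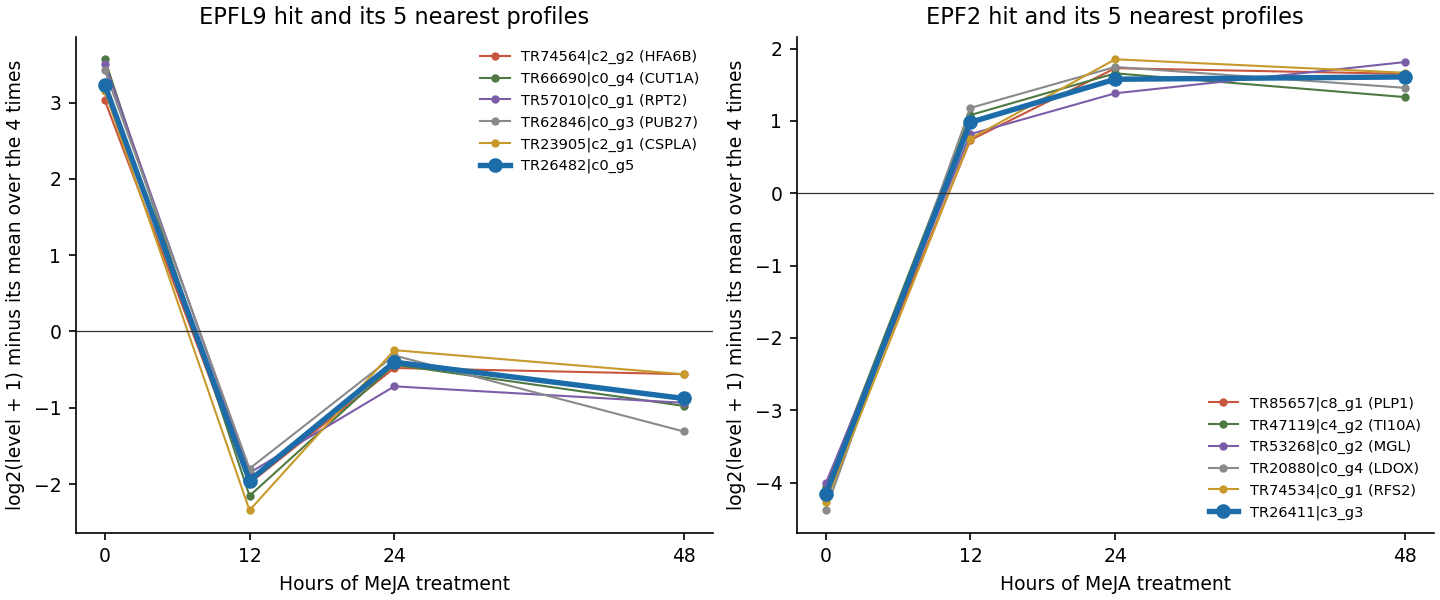
Profiles of log2(level + 1), each minus its own mean over the 4 times, against hours of MeJA treatment, for the EPFL9 hit (left) and the EPF2/DnaJ hit (right) as thick lines, with the 5 annotated genes nearest to each as thin lines. The nearest genes lie at distances of 0.19 to 0.27 from the EPFL9 hit and 0.15 to 0.19 from the EPF2/DnaJ hit.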

How the data were processed

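Leaf RNA from 12 samples at 4 times was sequenced from strand-specific paired-end libraries, per the labels' protocols. RSEM 1.2.19, Trimmomatic 0.33, FastQC 0.11.3 and CASAVA appear, with no role stated, in the submitters' processing notes. Per the file headers, the authors deposited a table whose 4 columns hold a normalised expression signal, 1 value for each assembled gene at each time. Neither its unit nor the assembler is given in the sources used here. Each value is a whole number of steps of 0.001 divided by 3 (tolerance 0.003 of a step), as for a mean of 3 replicates. Column totals are 866243 (0 h), 973347 (12 h), 965390 (24 h) and 932776 (48 h). Read depth is unknown. An emptied line was not analysed here.

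Names are the table's best Swiss-Prot BLASTX hits and state similarity. Genes whose highest level reached 1 were kept, a pseudocount of 1 was added, and a 2-fold difference was called in 6 comparisons (Python 3.11.15, pandas 2.3.3), after a check on simulated data. Having 1 mean per time, the table allowed no test. The 2 genes, the 15 lists and the rules were chosen with earlier results of these data known. Named genes are every EPF hit, the 5 nearest profiles and genes of the lists. The rule for a list was all members where up to 6 passed. Otherwise it was the 2 with the highest mean level and the 2 with the largest difference at 12 h. Not every gene that the rule gives is named, such as a KAT hit with a 12 h difference of 2.57. Apart from pieces of the members' components and the gene with the same TrEMBL hit, others are marked as chosen after their values were seen.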

Additional observations from a re-analysis of the deposited data

How the results depend on the processing

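The differences of the 2 genes kept their direction under a pseudocount of 0.1, no level filter, a level of at least 10, median-of-ratios scaling, columns scaled to 1 total and summed pieces. They kept their side of the 2-fold rule in 71 of 72 cases, the exception being the EPFL9 hit for 48 h against 12 h with pieces summed (0.97). The settings with no level filter and with a level of at least 10 only choose genes. They leave the difference of a single gene unchanged, so their cases among the 72 could not come out otherwise. At 12 h against 0 h the EPFL9 hit ranged from -5.99 to -5.05 and the EPF2/DnaJ hit from 4.19 to 7.21, the highest with a pseudocount of 0.1. With a level of at least 10, 2523 genes were higher and 2811 lower at 12 h than at 0 h, 2434 and 2404 at 24 h, and 2180 and 2861 at 48 h; 24 h minus 12 h gave 1977 and 1662, 48 h minus 24 h gave 273 and 744, and 48 h minus 12 h gave 1840 and 2525, since fewer genes enter. With a pseudocount of 0.1, 24 h minus 12 h gave 4704 higher and 5226 lower, 48 h minus 24 h gave 1648 and 3113, and 48 h minus 12 h gave 4433 higher. In the main setting 34.4% of the genes called for 48 h against 24 h were higher, and 45.4% with median-of-ratios scaling. The EPF median at 24 h turned to 1.05 with a level of at least 10, which leaves only the 2 genes, and that of the BREVIS RADIX family to 1.00. Counting only genes whose predicted protein has the same entry name, an alternative chosen after seeing the data, left out both of the 2 genes. Of the 8 EPF hits kept, 1 was higher and 2 lower at 12 h, beside 15% and 17.7% of all genes. All 7 receptor hits were kept, so their 12 h counts of 2 higher and 4 lower could not come out otherwise. No paired analysis was possible because the table holds 1 mean per time, and for the same reason no replicate could be left out.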

Other observations

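Other secreted signalling peptides were also measured. Of 10 hits to rapid alkalinisation factors (RALF), peptides that bind receptor kinases at the cell wall, 2 were higher and 5 lower at 12 h than at 0 h, and 1 higher and 8 lower at 24 h and at 48 h. The RALF-like 34 hit TR26145|c0_g2 was at 240, 176, 66.8 and 43.7 over the 4 times, and the RALF hit TR34154|c0_g1 at 0.233, 11, 7.82 and 5.85. A phytosulfokine precursor (TR67039|c0_g1), the source of a growth peptide, was at 22.0, 198, 120 and 93.0, highest at 12 h. Of 6 gibberellin-regulated and snakin peptides, cysteine-rich like the EPF family, none was higher and 3 were lower at 12 h, and 1 was higher and 4 were lower at 24 h and at 48 h. Over all genes 15% were higher and 17.7% lower at 12 h, 13.4% and 16.9% at 24 h, and 12.2% and 19.6% at 48 h. The GASA14 hit TR47384|c0_g1 was at 15.7, 0.804, 0.868 and 0.425.

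Of 37 hits to epidermal factors and cuticle genes that passed the filter, 5 were higher and 13 lower at 12 h, beside 15% and 17.7% of all genes. At 24 h 5 were higher and 16 lower, beside 13.4% and 16.9%. At 48 h 6 were higher and 14 lower, beside 12.2% and 19.6%. The 4 GLABRA 2 hits, named after a regulator of leaf hair formation in Arabidopsis, were among those higher at 12 h. Of these 4, 3 were higher at all 3 times, as were 6.27% of all genes. The other, TR19615|c0_g1 (chosen after its values were seen), was at 1.08, 30.8, 0 and 0.835, lower by the rule at 24 h. TR19615|c0_g4 was at 5.34, 133, 113 and 98.1 over the 4 times, and 2 of the other 3 are pieces of its component. Among genes of dividing leaf cells, 6 of 37 were higher and 7 lower at 12 h, near the shares over all genes. At 24 h 6 were higher and 9 lower, and at 48 h 4 and 12. The shares over all genes given above also stand beside the cyclin counts against 0 h. Of 15 D-type cyclins, the cyclins that answer growth signals, 2 were higher and 4 lower at 12 h, 2 and 7 at 24 h, and 2 and 8 at 48 h. Of 7 A- and B-type cyclins, none was past the rule at 12 h or 24 h against 0 h and 1 was lower at 48 h. Against 12 h, 2 were lower at 24 h and 2 at 48 h, beside 11.1% and 15.5% of all genes. These peptide, epidermis and cyclin groups were split by family after the values were seen.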
